A study of Mus musculus with 9 samples.

Results

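The miR-29 family of mature miRNAs was followed through 9 small RNA libraries of mouse serum. Its members, miR-29a-3p (MIMAT0000535), miR-29b-3p (MIMAT0000127) and miR-29c-3p (MIMAT0000536), were taken by their miRBase identifiers. They are 3 of the 876 miRNAs with at least 1 count in any library. The serum came from healthy male and female 129/SVj mice aged 2 to 9 months, and serum of 3 mice was combined per pool. RNA from each serum pool (labelled A, B and C) was divided into fractions that were left undepleted (control), depleted of 5′ tRNA-half fragments with biotinylated DNA probes and streptavidin beads (beads), or depleted with such probes and RNase H, which cuts RNA paired with DNA (RNase H). Each group therefore holds 3 libraries, none from an animal with a disease or a drug treatment under study. The labels speak of 3 pools and the methods of aliquots of a pool, so the spread between libraries of a group may be technical. The members were chosen by seed family, and the family was selected on its levels (counts scaled to the miRNA sum) in the control, beads and RNase H libraries, which were already known. Its levels and differences are therefore a description and carry no p.

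miRNAs guide Argonaute proteins to messenger RNAs, mainly through the bases near their 5′ end that form the seed, and lower the output of these messengers. The miR-29 family is known for repressing collagens and other extracellular matrix genes, the de novo DNA methyltransferases and the survival factor Mcl1. miR-29b additionally carries a motif at its 3′ end that is known to direct it to the nucleus.

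The mature sequences are shown because the members share a seed and differ only outside it, so that only reads that reach a differing base tell them apart. They are RefSeq sequences (GRCm38.p6), written 5′ to 3′, with bases 2 to 8 in capitals.
miR-29a-3p: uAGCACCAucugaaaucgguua
miR-29b-3p: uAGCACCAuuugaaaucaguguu
miR-29c-3p: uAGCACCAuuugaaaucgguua

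Positions are counted from 1 at the 5′ end. miR-29c-3p differed from miR-29a-3p by the single substitution C10U, and the other 21 of 22 positions were identical. miR-29b-3p was identical to miR-29c-3p over the first 17 bases, differed from it by G18A, U21G and A22U, and was 1 base longer (23 against 22 bases). G and C made up 40.9% of miR-29a-3p, 34.8% of miR-29b-3p and 36.4% of miR-29c-3p. Among 1679 mature mouse miRNAs with a RefSeq sequence, these 3 were the ones with AGCACCA at bases 2 to 8.

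The hairpin precursors, in which the 3p arm is set in capitals, lie in 2 pairs.
Mir29a: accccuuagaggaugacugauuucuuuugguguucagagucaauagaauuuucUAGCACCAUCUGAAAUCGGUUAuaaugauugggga
Mir29b-1: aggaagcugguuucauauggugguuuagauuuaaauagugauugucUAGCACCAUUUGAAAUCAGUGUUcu
Mir29b-2: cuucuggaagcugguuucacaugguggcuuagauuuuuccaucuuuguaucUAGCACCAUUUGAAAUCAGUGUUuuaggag
Mir29c: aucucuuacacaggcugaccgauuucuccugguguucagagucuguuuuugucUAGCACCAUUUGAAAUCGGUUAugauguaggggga

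Mir29a (31062660 to 31062747) and Mir29b-1 (31063023 to 31063093) lie on the minus strand of chromosome 6, with 275 bases between them. Mir29a overlapped no other gene of the annotation, and Mir29b-1 shared its outermost 2 bases with an exon of the lincRNA Gm27019. Mir29b-2 (195037040 to 195037120) and Mir29c (195037547 to 195037634) lie on the plus strand of chromosome 1, with 426 bases between them. Both lie within an exon of the non-coding host transcript A330023F24Rik, and also within an exon of the protein-coding gene Cd46 on the opposite strand. The mature miR-29b-3p is the same from Mir29b-1 and Mir29b-2, so its counts cannot be divided between the chromosomes, whereas each of the other members comes from a single hairpin.

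The depth of the libraries limits what can be said of each member. The sum of miRNA counts, to which all levels are scaled, was 205185 to 330676 in control, 1822088 to 1995956 in beads and 1199 to 2040 in RNase H libraries. Reads annotated as miRNA made up 4.92% to 6.72%, 51.5% to 71.4% and 1.27% to 4.18% of all annotated counts in these groups. A floor of 3 counts stood for a level of 9.07 to 14.6 counts per 1000000 miRNA counts of the library (CPM) in control, 1.503 to 1.65 in beads and 1471 to 2502 in RNase H libraries.

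miR-29a-3p supplied nearly all family counts in serum without depletion, and its relative level after depletion with beads was close to that of the control. It was counted 404, 599 and 450 times in control pools A, B and C, and 3479, 3521 and 3243 times in the beads libraries of the same pools. This was a level of 1969, 1811 and 1809 CPM in control and 1806, 1764 and 1780 in beads libraries. The highest beads library (1806) and the lowest control library (1809) were nearly equal. The mean was 1863 ± 91.5 (SD, n = 3) in control and 1783 ± 21.1 (SD, n = 3) in beads libraries. The ratio of levels within a pool was 0.917 in A, 0.974 in B and 0.984 in C, and the 95% counting interval of each reached past 1 (0.827 to 1.02 in A, the pool with the lowest ratio). The edgeR log2 fold change was -0.05 ± 0.088 (SE), against a median of 0.04 over all 307 miRNAs tested. Its place in the order of mean levels also changed little, from 50 of 572 detected miRNAs in control to 52 of 837 in beads libraries.

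miR-29b-3p was close to absent from the control libraries and was the member that rose with beads. It had 4, 3 and 1 counts in control pools A, B and C, and 343, 356 and 381 counts in the corresponding beads libraries. Its level was 19.5, 9.07 and 4.02 CPM in control and 178, 178 and 209 in beads libraries. Every beads library lay far above every control library, with means of 10.9 ± 7.89 (SD, n = 3) in control and 188.5 ± 17.8 (SD, n = 3) in beads libraries. The edgeR log2 fold change was 4.20 ± 0.33 (SE), or 18.4-fold.

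The size of this rise was poorly fixed by the control counts, which were at the floor in pool B and under it in pool C. The ratio of levels was 9.13 in pool A (95% counting interval 3.53 to 33.7), 19.7 in pool B (6.67 to 95.8) and 52.0 in pool C (9.28 to 2059). The log2 fold change was 4.81 without pool A and 3.76 without pool C. At the control level of its own pool, the beads library of pool A would have held 37.6 counts of miR-29b-3p, that of pool B 18.1 and that of pool C 7.33, against the 343 or more that were counted in each.

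miR-29c-3p, which shares its first 17 bases with miR-29b-3p, did not show such a rise. It had 10, 26 and 14 counts in control pools A, B and C, and 132, 134 and 108 counts in beads libraries. Its level was 48.7, 78.6 and 56.3 CPM in control and 68.5, 67.1 and 59.3 in beads libraries. The beads libraries thus lay within the range of the control libraries, with means of 61.2 ± 15.5 (SD, n = 3) in control and 65.0 ± 4.99 (SD, n = 3) in beads libraries. The ratio within pools was 1.41 in A, 0.854 in B and 1.05 in C, and each 95% counting interval included 1, the widest from 0.741 to 3.00 in A. The edgeR log2 fold change was 0.04 ± 0.25 (SE), so that small changes could not be resolved for this member.

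**Figure D1:**
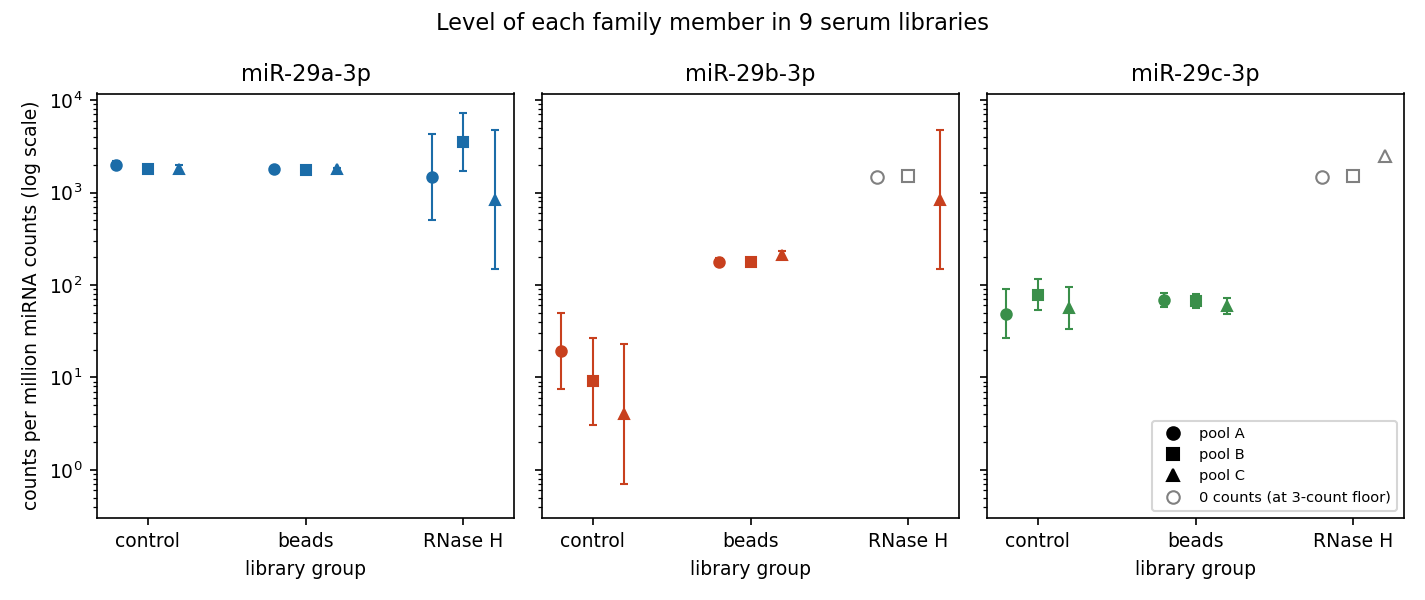
Level in counts per 1000000 miRNA counts (log scale) of each member in the 9 libraries, by group, with the serum pool as marker shape and Wilson 95% intervals as bars. Open grey markers are libraries with 0 counts, drawn at the level of 3 counts. miR-29b-3p lies at 4.02 to 19.5 in control and 178 to 209 in beads libraries, while the other members stay at like levels in both groups.

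With the test applied to all miRNAs, 1 of the 3 members, miR-29b-3p, had an edgeR adjusted p below 0.05 in the comparison of beads with control libraries. Over all 307 miRNAs tested, 26.7% were called in either direction and 16.6% were called as raised. The family was proposed with this comparison in view, so nothing is read from the count. miR-29b-3p passed the filter on low counts through its beads libraries, since its control libraries together held 8 counts, too few for the default filter.

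miR-29b-3p stood at place 5 from the highest log2 fold change among the 307 miRNAs, miR-29c-3p at 153 and miR-29a-3p at 180. The middle of the distribution, between its 25th and 75th percentiles, ran from -0.22 to 0.40, and its 95th percentile was 2.11. Changes above 3 on the log2 scale were seen for 12 miRNAs, each of them called as raised, and changes above 4 for 6.

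**Figure D2:**
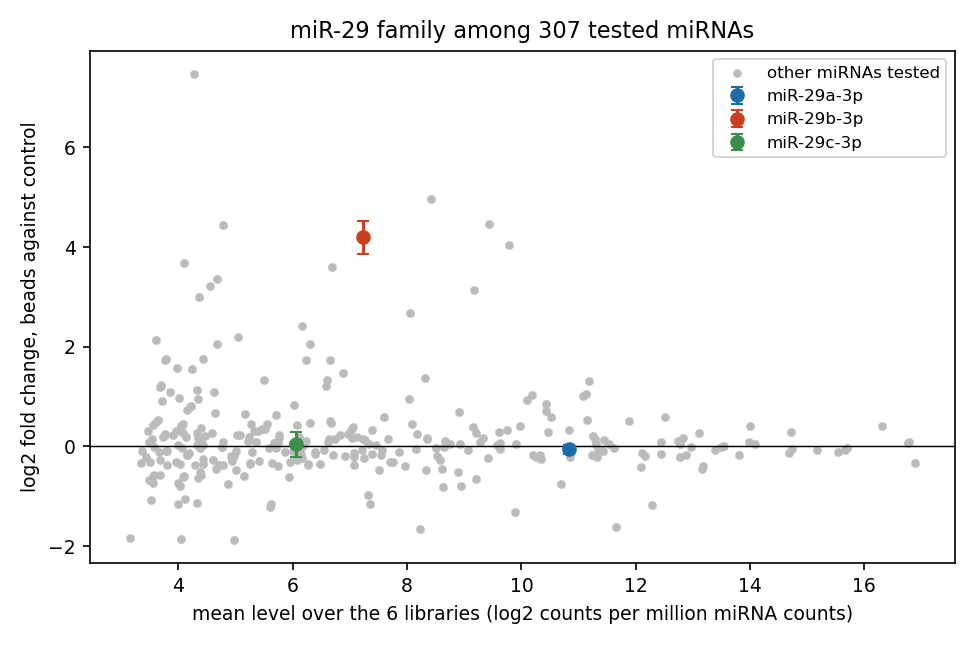
Log2 fold change of beads against control libraries over the mean level (log2 CPM, relative to miRNA counts) for the 307 miRNAs tested with edgeR. Grey points are single miRNAs, and coloured points are the family members with SE bars. miR-29b-3p lies at 4.20, and miR-29a-3p (-0.05) and miR-29c-3p (0.04) lie on the line of no change.

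In the order of mean levels, miR-29b-3p moved from place 272 of 572 in control to place 112 of 837 in beads libraries. Of the 271 miRNAs above it in control libraries, 160 were below it in beads libraries, and none of the 300 detected miRNAs below it in control libraries was above it in beads libraries. Its direct neighbours in the control order, at 10.96 and 10.73 CPM, stood at 12.1 and 5.91 in beads libraries. For miR-29c-3p, which moved from place 160 to 165, the neighbours at 61.3 and 61.2 in control stood at 68.3 and 63.1 in beads libraries. The neighbours of miR-29a-3p, at 2000 and 1833 in control, stood at 1734 and 2628 in beads libraries.

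The composition of the family does not depend on how libraries are scaled to each other. It is formed from the same counts, so its shift restates the rise of miR-29b-3p and adds no separate observation. In control libraries, miR-29a-3p made up 96.3% ± 0.771, miR-29c-3p 3.18% ± 0.886 and miR-29b-3p 0.550% ± 0.376 of the summed family counts (SD, n = 3). In beads libraries these shares were 87.6% ± 0.579, 3.19% ± 0.257 and 9.25% ± 0.834 (SD, n = 3).

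The share of miR-29b-3p was highest in control pool A, at 0.957% (Wilson 95% interval 0.373% to 2.43%), and lowest among beads libraries in pool A, at 8.67% (7.84% to 9.59%). The share of miR-29c-3p ran from 2.39% to 4.14% in control and from 2.89% to 3.34% in beads libraries, so the groups overlapped.

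**Figure D3:**
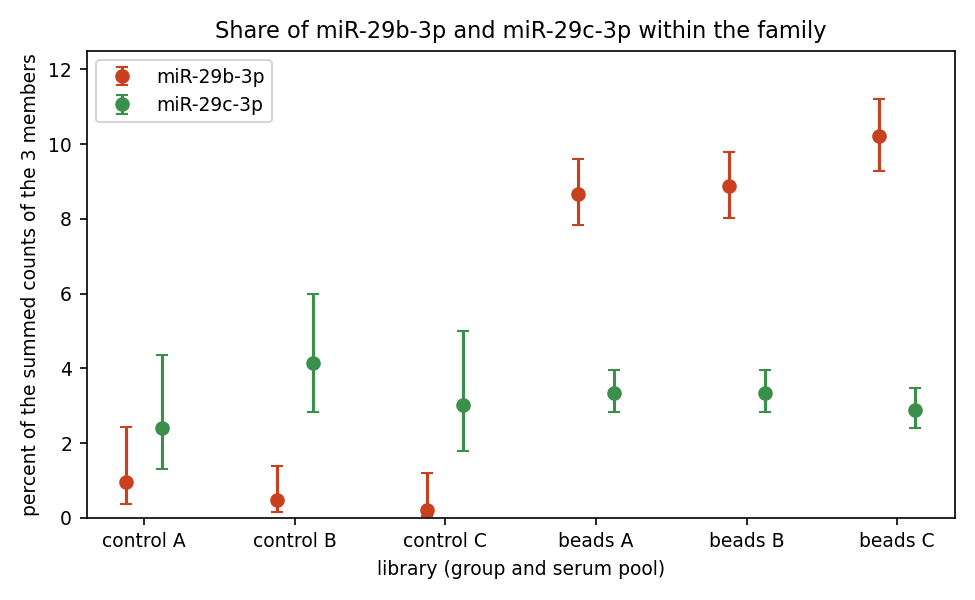
Percent of the summed counts of the 3 members held by miR-29b-3p and miR-29c-3p in each control and beads library, with Wilson 95% intervals as bars. The remainder is miR-29a-3p. miR-29b-3p lies at 0.215% to 0.957% in control and at 8.67% to 10.2% in beads libraries, and miR-29c-3p overlaps between the groups.

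The members accordingly changed order. In every control library miR-29c-3p was counted more often than miR-29b-3p, with ratios of miR-29b-3p to miR-29c-3p of 0.400, 0.115 and 0.0714 in pools A, B and C. In every beads library miR-29b-3p was the more frequent, with ratios of 2.60, 2.66 and 3.53. The Wilson intervals of these members overlapped in control pool A, where 4 counts stood against 10, so their order was not resolved in that library alone. The ratio of miR-29a-3p to miR-29c-3p was 40.4, 23.0 and 32.1 in control and 26.4, 26.3 and 30.03 in beads libraries, so the beads values fell within the control range.

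Because miR-29a-3p held most of the counts, the summed level of the family showed little of the rise of miR-29b-3p. The sum was 1935 ± 89.4 CPM in control and 2037 ± 23.6 in beads libraries (SD, n = 3), which is a ratio of 1.05. The ratio was 1.01 in pool A, 1.06 in pool B and 1.095 in pool C, and the counting interval included 1 in each pool.

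The raw number of family reads did increase with beads, from 418, 628 and 465 counts in control pools A, B and C to 3954, 4011 and 3732 counts. This is a ratio of 9.46, 6.39 and 8.03. Relative to all annotated counts in place of miRNA counts, the level of the family was 10.6 times as high in beads as in control libraries. With this scaling the log2 fold change was 3.27 for miR-29a-3p, 7.44 for miR-29b-3p and 3.35 for miR-29c-3p. The median of all miRNAs tested then shifted from 0.04 to 3.37, and relative to it the members were at -0.10, 4.07 and -0.02.

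After depletion with RNase H, few family reads were left. miR-29a-3p had 3, 7 and 1 counts in pools A, B and C, miR-29b-3p had 1 count in pool C and 0 in the other libraries, and miR-29c-3p had 0 counts in all 3. The level of miR-29a-3p was 1471 CPM (Wilson 95% interval 500.3 to 4315) in pool A, 3541 (1716 to 7291) in pool B and 834 (147 to 4709) in pool C. The libraries differed widely, and their intervals overlapped each other and reached across the control range.

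The edgeR log2 fold change of miR-29a-3p for RNase H against control was 0.06 ± 0.43 (SE), against a median of -0.19 over the 138 miRNAs tested. It was the 1 member of 3 that passed the filter in this comparison, and it was not called. In all, 11.6% of the 138 miRNAs were called (16), and this number was 4 without pool C, 8 without pool A and 30 without pool B. Without pool B, whose RNase H library held 7 of the 11 counts of miR-29a-3p, the log2 fold change was -0.88 ± 0.68 (SE), and it was not called either.

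The counts of the other members were too few to compare. At the control share of each pool, the RNase H libraries together would have held 9.77 counts of miR-29a-3p, 0.0625 of miR-29b-3p and 0.322 of miR-29c-3p. At the share of the beads libraries they would have held 9.31, 0.967 and 0.344. The counts observed were 11, 1 and 0. With the limit for a count of 0 set at 3 counts, a level of up to 1471 CPM was allowed in RNase H pool A, 1518 in pool B and 2502 in pool C, far above the 61.2 of miR-29c-3p in control libraries. Whether miR-29b-3p followed the control or the beads level after RNase H was thus not detectable at this depth.

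**Figure D4:**
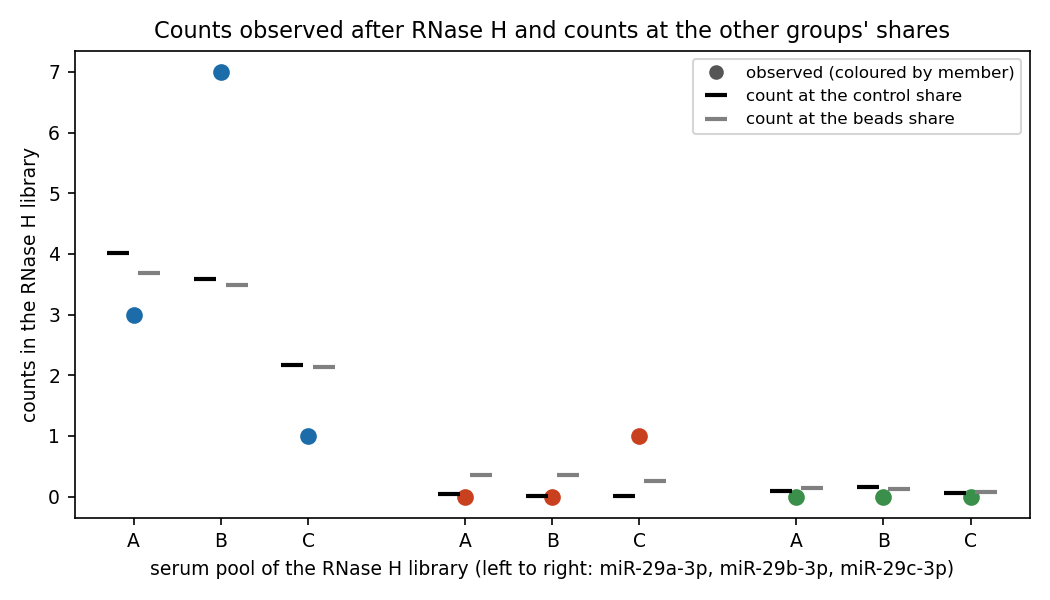
Counts of each member in the RNase H library of each serum pool (points), with the count expected at the control share (black bars) and at the beads share (grey bars) of the same pool. Observed counts run from 0 to 7, and expected counts of miR-29b-3p and miR-29c-3p stay below 1 in every library.

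Over the 6 control and beads libraries, log2 levels of the members did not run together. Pearson's r was -0.408 between miR-29a-3p and miR-29b-3p, -0.604 between miR-29a-3p and miR-29c-3p, and 0.066 between miR-29b-3p and miR-29c-3p. These are descriptions over 6 libraries that share their serum pools in pairs and fall into 2 groups. Counting error also enters them, since control libraries held 1 to 4 counts of miR-29b-3p and 10 to 26 of miR-29c-3p.

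Among 168 other miRNAs with at least 10 counts in each of these libraries, the pattern of miR-29b-3p was most like that of MIMAT0000546 (r = 0.995) and MIMAT0014946 (r = 0.991). MIMAT0000546 was at 715 ± 70.3 CPM in control and 1346 ± 56.9 in beads libraries, and MIMAT0014946 at 149 ± 21.7 and 385 ± 21.5 (SD, n = 3). Both were thus higher with beads by much smaller factors than miR-29b-3p, and r reflects mainly the gap between the groups. miR-29b-3p itself fell short of 10 counts in every control library, so other miRNAs as scarce in control were not compared. The miRNA most like miR-29a-3p was MIMAT0000128 (r = 0.95), and that most like miR-29c-3p was MIMAT0004869 (r = 0.860). The files give these identifiers without names.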

How the data were processed

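Small RNA libraries of 9 serum RNA fractions (3 groups of 3) were analysed. The deposited values are raw read counts in 18 files, a file of mature miRNAs and a file of other small RNA classes per library. The authors trimmed reads with Cutadapt 1.8.1, mapped them to GRCm38 with Bowtie 1.1.2 without mismatches, and annotated them by position with miRBase. Reads with an untemplated end or an error are therefore missing unless they match the genome elsewhere. A miR-29a-3p read with the error C10U would have matched miR-29c-3p, and how many such reads there were was not tested. Whether strand was used in annotation is not given in the sources used here.

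Levels (CPM) are counts per 1000000 miRNA counts of the library. edgeR 4.0.16 (R 4.3.3) was run on all miRNAs (TMM, default filterByExpr, quasi-likelihood test, Benjamini-Hochberg adjustment, threshold 0.05) using only the 2 groups compared, and the SE was obtained as log2 fold change over root of the F statistic. The fits were tested on simulated data. Wilson intervals of shares and exact intervals of count ratios are 95% intervals (SciPy 1.17.1, Python 3.11.15). They and the floor of 3 counts cover counting error only, since PCR reads without molecular identifiers are not independent molecules. No pair of libraries within a group agreed within sampling noise. Chi-square per degree of freedom was 1.37 to 4.27 for control pairs and 2.70 to 6.66 for RNase H pairs. It was 12.3 to 20.5 for beads pairs, so counting intervals understate the spread between libraries over miRNAs as a whole. Libraries were paired by the serum pool in their labels, whose RNA was divided between the groups. The correlation of same-pool deviations from group means was 0.023 to 0.163 for beads and -0.092 to 0.063 for RNase H.

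The members and lists were chosen with earlier results of these data known. Named were the members and the miRNAs most like each (log2 CPM of count + 0.5), with neighbours in the control order. No table used here pairs miRBase identifiers with names, so the lists planned by name (the 5p strands of the miR-29 hairpins, other miRNA families and markers of cell types) were not analysed here, fewer of the most similar miRNAs are named than planned, and the tissue label was not checked against markers. Alternatives were other size factors (also DESeq2 1.42.0), no filter, a joint fit, a pool block and leaving out each pool.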

Additional observations from a re-analysis of the deposited data

How the results depend on the processing

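Of 102 recomputed values, 92 stayed within the spread between replicates or, for counts of calls, within 1.5 times the value reported. For RNase H that spread was wide, so large changes still counted as within it. The ratio of the family sum with RNase H went from 1.15 to 0.553 with scaling to all annotated counts, and to 0.803 without pool B. Scaling to all annotated counts moved the log2 fold changes with beads to 3.27 (miR-29a-3p), 7.44 (miR-29b-3p) and 3.35 (miR-29c-3p), that of miR-29a-3p with RNase H to -1.43, the ratio of the family sum with beads to 10.6, and the number of miRNAs called from 82 to 332 for beads and from 16 to 51 for RNase H. All members were then called with beads, as was every other miRNA tested. The unequal share of miRNA in the libraries enters this scaling directly and so shifts the levels. The change in the number of calls was not traced further, and the number of miRNAs tested also differed (332 against 307 for beads, 143 against 138 for RNase H). When pools entered as a replicate block, 91 and 12 miRNAs were called, and the log2 fold change of miR-29b-3p with beads was 4.19. With this block, no member tested changed its call, but the family was selected on these levels, so nothing is read from that.

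Leaving out a pool gave log2 fold changes of 3.76 (without pool C) to 4.81 (without pool A) for miR-29b-3p with beads, and 4 (without pool C), 8 (without pool A) and 30 (without pool B) calls for RNase H. The cause was not tested. Depth limits the RNase H values of all members and the control level of miR-29b-3p.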
